A study of Mus musculus with 20 samples.

Results

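Endothelial cells of the heart were set against endothelial cells of the kidney in aged animals, C57BL/6 mice of wild type genotype at 24 months of age, by bulk RNA sequencing. The comparison rests on the 6 libraries that the labels give as heart or kidney at 24 months, 3 of each organ, out of 18 libraries in the series, and genes of both organs were joined by their Ensembl identifier. Cells came fresh from digested tissue, were enriched on magnetic beads for CD31 (an adhesion protein of endothelium, product of Pecam1) and were then sorted as CD31 positive and negative for GP38 (encoded by Pdpn) and CD45 (encoded by Ptprc). The remaining libraries were heart and kidney at 3 months, used where the organ difference is compared between ages, and brain. All 18 enter together in 1 alternative fit, which is named for some of the calls that it ends, beside the gene or in the closing section. The labels do not say that libraries of 1 group come from separate animals, so p-values measure the spread between these libraries, which may be technical. In bulk samples such as these, fewer cells of a type and less RNA per cell cannot be told apart.

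The vessels of the 2 organs are built for different work. Heart capillaries have an unbroken wall rich in caveolae, the small flask-shaped pits of the cell membrane, and carry fatty acids from the blood to the beating muscle. Many capillaries of the kidney are perforated by fenestrae, round pores that let water and solutes cross, and vessels of the medulla lie in salt and urea at high concentration. Endothelial cells of both organs share a set of receptors and junction proteins and differ in transcription factors laid down during development.

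The total count was 38338152 to 44359038 per heart library and 38192446 to 80960468 per kidney library, the highest being a library sequenced in 2 runs that were summed. Levels are in CPM, a gene's counts relative to the total of its library after scaling of the libraries to each other, and fold changes are on the log2 scale, heart over kidney, with a standard error (SE), so that a negative value is higher in kidney. A gene is called where the adjusted p of edgeR's quasi-likelihood test is at or under 0.05, and the genes named below with a call kept it in each of 6 fits that left out 1 library, unless said otherwise. Fold figures compare mean CPM, and bounds against a group with 0 counts cover counting error only.

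Markers of endothelium in general were abundant in both organs. Pecam1 was at 1780, 1746 and 1812 CPM in heart libraries 1, 2 and 3 and at 1803, 1868 and 1466 CPM in kidney libraries 1, 2 and 3, and the organs overlapped. Of 23 general endothelial genes, 6 were called higher in heart, 2 higher in kidney and 15 were not called. The list's median log2 fold change was 0.04. Without any 1 library the 6 were 4 or 5, and the 2 were 1 without kidney library 2 and 3 without kidney library 3. The receptor of vascular endothelial growth factor, Kdr, did not pass (log2 fold change -0.10, SE 0.21, adjusted p = 0.818). Cdh5, the cadherin of endothelial junctions, was at 509.2, 523.3 and 518.3 CPM in heart and 225.9, 224.9 and 165 CPM in kidney, and no library overlapped (log2 fold change 1.33, SE 0.16, adjusted p = 0.0024). Emcn, a sialomucin of capillaries and veins, was the reverse, at 712.8, 732.2 and 672.3 CPM in heart and 1516, 1725 and 1288 CPM in kidney (log2 fold change -1.10, SE 0.14, adjusted p = 0.00329).

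Genes of neighbouring cells were present at levels that differed between the organs and between libraries. The sort's negative markers were low: Ptprc was at 0.0272, 6.05 and 0.0248 CPM in heart and 1.07, 7.74 and 5.78 CPM in kidney, and Pdpn did not exceed 5.24 CPM. Markers of renal tubules, the epithelium that lies against kidney capillaries, summed over 20 genes to 7935, 6835 and 12730 CPM in kidney libraries 1, 2 and 3. In heart they summed to 11.6, 13.1 and 251.4 CPM, so heart library 3 stood apart, with Slc5a2 and Slc22a6 at 0 counts in all heart libraries and Umod, the most abundant protein of urine, at 120.9 CPM in library 3. Genes of the proximal tubule were lower in kidney library 2, where Slc34a1, its phosphate transporter, was at 23.5 CPM against 240 and 253.8 CPM in libraries 1 and 3. Of 18 tubule genes tested, 15 were called higher in kidney, and 9 without kidney library 3. Kidney library 3, which held the highest tubule sum, had the highest kidney level for 970 of the 1788 genes called higher in kidney (54.3%), 11 of these 15 tubule genes and 2 of 13 called markers of kidney endothelium. Genes of podocytes, the filter cells of the glomerulus, and of renin cells summed over 9 genes to 1894 to 2145 CPM in heart and 1751 to 2442 CPM in kidney, with Nphs1 at 0 in heart and Ptpro at 0 in kidney. Of these 9, 3 had too few counts to be tested, 2 were called higher in heart and 2 higher in kidney. With members called in both directions, the sum is no measure of RNA of these cells.

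Heart libraries held more RNA of mural and muscle cells. Pericyte and smooth muscle markers summed over 14 genes to 1648, 1661 and 2243 CPM in heart and 437.5, 306.8 and 476.4 CPM in kidney, with no marker at 0 in either organ, and 9 of 14 were called higher in heart and 1 in kidney, or 0 in kidney without any 1 library. Cardiomyocyte markers, 17 genes, summed to 168.2, 124.8 and 182.2 CPM in heart and 8.13, 9.24 and 15.8 CPM in kidney, where Nppa and Cox6a2 were at 0. Markers of fibroblasts summed to 240.1 to 364.2 CPM in heart and 155.4 to 190.0 CPM in kidney over 10 genes, and those of red cells and platelets to 342.9 to 482.8 CPM and 27.8 to 45.6 CPM over 10 genes. Leukocyte markers overlapped between the organs, at 47.0 to 98.9 CPM in heart and 40.2 to 70.8 CPM in kidney over 15 genes, with S100a8 and S100a9 at 0 in kidney. What part these cells had in the results that follow was not tested, and their sums are repeated where a group of genes moved with them.

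**Figure D1:**
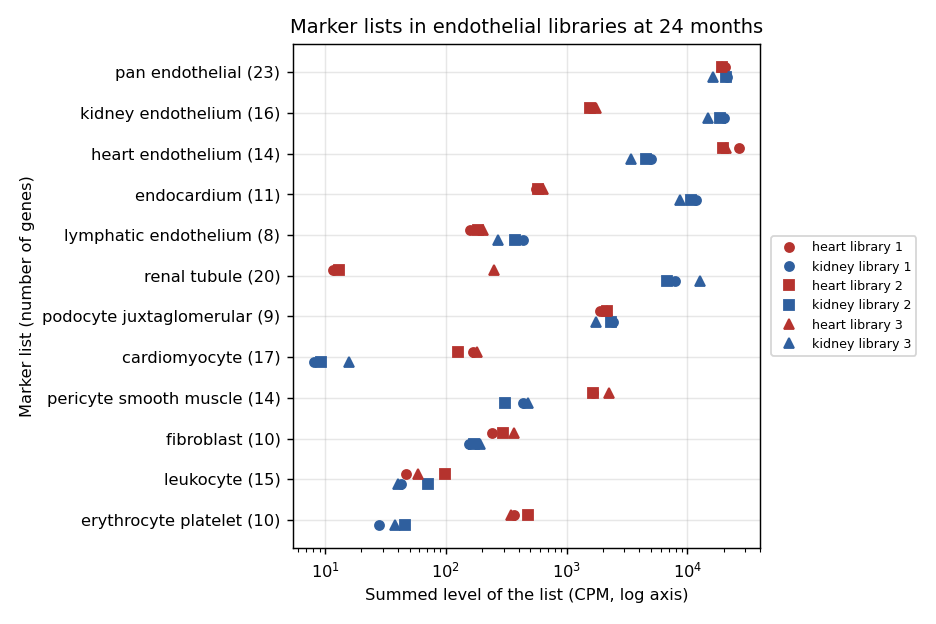
Summed level of 12 lists of cell type markers (CPM, log axis) in each library at 24 months, heart in red and kidney in blue, with 1 symbol per library number and the number of genes in brackets. The renal tubule sum is 6835 to 12730 CPM in kidney and 11.6, 13.1 and 251.4 CPM in heart, while the general endothelial sum overlaps between the organs.

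Of 16057 genes tested, 2890 were called (18%), of which 1102 were higher in heart (6.86% of genes tested) and 1788 higher in kidney (11.1%). The median log2 fold change over all genes tested was -0.01. Calls with a change of more than 2-fold numbered 2215. Leaving out a library lowered the number of calls to 1731 without kidney library 3, 1769 without kidney library 2 and 1917 without kidney library 1, and to between 2074 and 2270 without any 1 of the heart libraries. Calls higher in heart fell to 639 without kidney library 2, 701 without kidney library 3, 710 without heart library 3 and 723 without heart library 2, and calls higher in kidney to 1030, 1130 and 1160 without kidney libraries 3, 2 and 1. Of the 2890 calls, 1349 (46.7%) held in each of the 6 fits.

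Markers known from young vessels of each organ separated the aged libraries in the direction of their names. Of 16 markers of kidney endothelium, 13 were called higher in kidney and 0 in heart (median log2 fold change -3.12). Of 13 tested markers of heart capillaries, 12 were called higher in heart and 1, Gja4, higher in kidney (median 3.26). The 12 were 9 without kidney library 3 and at most 11 without any other library. The 13 markers of kidney endothelium were 12 without any 1 kidney library and otherwise stayed at 13. The lists were chosen from what is known of these vessels and with earlier results of these data known. Their direction is therefore a description and no independent check of the labels. Summed over the list, heart capillary markers came to 26750, 19880 and 20930 CPM in heart and 5019, 4522 and 3417 CPM in kidney. Markers of kidney endothelium came to 1573, 1570 and 1734 CPM in heart and 19960, 18710 and 14930 CPM in kidney. Endocardial genes, which mark the lining of the heart chambers, were called higher in heart for Gata4, Gata6, Cdh11, Smoc1 and Cytl1, 5 of 11 tested, while Npr3 and Plvap of that list were higher in kidney. Of 8 lymphatic markers tested, 2 were called higher in heart and 1 higher in kidney. The 2, Lyve1 and Fgl2, were 0 without heart library 1 or 3 or kidney library 3 and 1 without any other library. The 1 was Flt4, the receptor of the lymphatic growth factor, and Prox1, their defining transcription factor, was not called (adjusted p = 0.334).

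Transcription factors that pattern organs gave some of the widest gaps. Of 35 tested, 10 were called higher in heart and 7 higher in kidney, with a median log2 fold change of 0.37. Meox2, a homeobox factor of heart capillaries, was at 298.3, 419.3 and 390.7 CPM in heart and 8.41, 15.2 and 5.06 CPM in kidney. The lowest heart library stood far above the highest kidney library, and the means differed 38.7-fold (log2 fold change 5.28, SE 0.45, adjusted p = 0.000707). Tcf15, which pairs with it in those vessels, was at 668.1, 695.9 and 643.9 CPM against 48.1, 69.9 and 75.0 CPM, 10.4-fold apart (log2 fold change 3.38, SE 0.20, adjusted p = 0.000242).

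The GATA family split between the organs. Gata4, a factor of heart development, was at 17.9, 21.7 and 19.4 CPM in heart and had 2 counts in all 3 kidney libraries together (adjusted p = 0.00071). Gata6 was called higher in heart, at 52.5, 43.9 and 60.0 CPM against 5.50, 13.3 and 13.2 CPM (log2 fold change 2.29, SE 0.37, adjusted p = 0.0074), a call lost in a fit of all 18 libraries (adjusted p = 0.0909). Gata5 ran the other way, at 9.01, 22.8 and 7.03 CPM in kidney and at 0.0545, 0 and 0 CPM in heart (adjusted p = 0.00281). Gata2, a factor of endothelium in general, was not called (log2 fold change 0.25, adjusted p = 0.305). Hand2 and Tbx20, further factors of heart development, were called higher in heart at low levels, up to 2.58 and 6.19 CPM, and Wt1, known from the outer lining of the heart and from the podocytes of the kidney, was at 67.7, 39.5 and 45.2 CPM in heart and 0.716, 0.482 and 0 CPM in kidney.

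Irx3 and Irx5, homeobox factors, were called higher in kidney. Irx3 was 8.56-fold higher in kidney (log2 fold change -3.10, SE 0.27, adjusted p = 0.00081) and Irx5 16.9-fold (log2 fold change -4.08, SE 0.51, adjusted p = 0.00296). Pax8 and Emx2, known from renal tubules, were also called higher in kidney, Pax8 at 45.0, 54.4 and 66.7 CPM against 0.0272, 1.45 and 0.0991 CPM, beside the tubule sums given above, and their share in these values was not tested.

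Hox genes lie in 4 clusters whose order along the chromosome follows the position along the body where each is active, and the kidney forms further towards the tail than the heart. Of 39 Hox genes, 26 had counts enough to be tested, 14 of them were called higher in kidney and 0 higher in heart, and the median log2 fold change was -3.89. The count of 14 fell to 9 without kidney library 2 and to 9 without kidney library 3. The calls sat in the middle of the clusters: 13 of 17 tested genes of paralogue groups 5 to 10 were called, against 1 of 9 in groups 1 to 4, and the 9 genes of groups 11 to 13 had too few counts. This grouping was made with the values known. Hoxa9, Hoxb9, Hoxc4, Hoxc5, Hoxc6, Hoxc10 and Hoxd10 had 0 to 3 counts in each heart library. They had counts enough to be tested through kidney libraries alone, which fixed their direction. The split of 14 to 0, the median and the grouping rest partly on these genes.

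**Figure D2:**
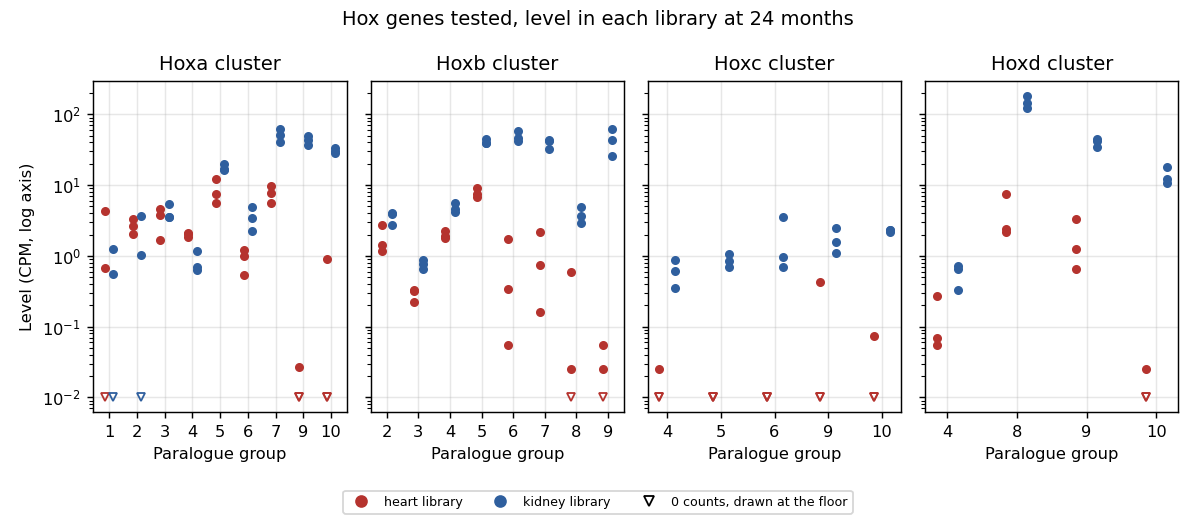
Level of each of the 26 Hox genes tested in each library (CPM, log axis), by cluster and paralogue group, heart in red and kidney in blue, with open triangles at the foot for 0 counts. Organs overlap for several genes of groups 1 to 3 and part from group 4 on, where Hoxa4, not called, is higher in heart. From group 5 on all are higher in kidney, where libraries reach 181.1 CPM for Hoxd8, and heart libraries do not exceed 12.4 CPM.

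Hoxd8 (chromosome 2, 74704615 to 74707933, forward strand of GRCm38) had the highest kidney level of the Hox genes called, also per length, at 54.4 CPM per kilobase of exon against 25.4 for Hoxb7, 24.7 for Hoxb6 and 18.8 for Hoxd9. Its libraries were at 124.2, 142.9 and 181.1 CPM in kidney and 2.21, 2.40 and 7.48 CPM in heart, with the highest heart value in library 3, and did not overlap (log2 fold change -5.21, SE 0.55, adjusted p = 0.00162). Hoxa9 (chromosome 6, 52223100 to 52231089, reverse strand) was at 36.6, 42.7 and 49.4 CPM in kidney and had 1 count in all heart libraries together (adjusted p = 0.00021). Hoxb9 and Hoxd10 were at 25.7 to 61.1 and 10.8 to 18 CPM in kidney and under 0.06 CPM in every heart library.

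Some Hox genes were active in both organs at different levels. Hoxa7 was at 9.56, 7.79 and 5.52 CPM in heart and 40.1, 62.6 and 51.0 CPM in kidney, 6.72-fold apart (log2 fold change -2.75, SE 0.29, adjusted p = 0.00157). Hoxb5 was at 6.89, 7.40 and 8.97 CPM in heart and 38.8, 45.2 and 39.3 CPM in kidney, 5.30-fold apart (log2 fold change -2.41, SE 0.20, adjusted p = 0.000671). Hoxa5 was at 5.61, 12.4 and 7.46 CPM in heart and 17.0, 16.4 and 19.7 CPM in kidney and did not pass (log2 fold change -1.06, SE 0.35, adjusted p = 0.083). Hoxb6, Hoxb7 and Hoxd9 were called with fold changes of 69.1, 38.4 and 23.3, and in heart Hoxb6 and Hoxb7 were highest in library 3. Kidney library 3 was the highest kidney library for 12 of the 14 genes called, against 54.3% of all genes called higher in kidney. Hox genes are also active in renal tubules, whose markers were highest in the same 2 libraries, and their part in these values was not tested. Hoxc4, Hoxc5 and Hoxc6 were at 0.352 to 3.56 CPM in kidney. The span of Hoxc5 on chromosome 15 overlaps those of Hoxc6, Hoxc8, Hoxc9 and Hoxc10, so reads may be shared among these. Hoxc4 lies outside it. Hoxc5 was not called without any 1 kidney library, Hoxc6 not without kidney library 2 or 3 and Hoxc4 not in any of the 6 fits, with adjusted p up to 0.0675, 0.0655 and 0.106. Hoxc4 and Hoxc5 were also not called in edgeR's fit of all 18 libraries (adjusted p = 0.122 and 0.127).

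Promoters are shown of Hoxa9, which had the lowest adjusted p of the Hox genes, and Hoxd8, which had the highest kidney level, because genes of all 4 clusters were called in 1 direction. The stretches run from 250 bases before to 50 bases after the start that RefSeq gives (GRCm38.p6), with GGGCGG or its reverse complement CCGCCC, the GC box motif, in capitals. The Hoxa9 window is chr6:52227321-52227620 on the reverse strand and holds 1 such motif, and the Hoxd8 window is chr2:74704365-74704664 on the forward strand and holds 0.
Hoxa9: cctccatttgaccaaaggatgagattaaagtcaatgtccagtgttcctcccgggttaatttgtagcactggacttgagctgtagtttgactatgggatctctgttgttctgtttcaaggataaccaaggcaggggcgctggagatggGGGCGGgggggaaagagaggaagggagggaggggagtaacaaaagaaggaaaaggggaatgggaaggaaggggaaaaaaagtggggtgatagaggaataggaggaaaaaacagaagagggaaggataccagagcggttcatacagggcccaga
Hoxd8: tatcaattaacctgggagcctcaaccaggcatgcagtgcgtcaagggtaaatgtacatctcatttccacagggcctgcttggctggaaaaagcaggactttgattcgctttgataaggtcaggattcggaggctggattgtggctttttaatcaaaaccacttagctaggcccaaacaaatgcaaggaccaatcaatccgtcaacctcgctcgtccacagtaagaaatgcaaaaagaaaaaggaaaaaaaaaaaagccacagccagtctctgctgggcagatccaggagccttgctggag
Of the 14 Hox genes called, 7 had a promoter in the RefSeq table and 4 of those 7 held the motif on either strand. Among the 12 tested but not called it was 2 of 7, and of all 32851 promoters listed, 35.7% did. A match is a description of the letters and not a binding site.

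Genes of fenestrae and caveolae were called in both directions. Of 16 genes tested, 6 were called higher in heart and 3 higher in kidney, with a median log2 fold change of -0.05. Leaving out any 1 library kept the 6 at 6 and gave 3 or 4 higher in kidney. Plvap (chromosome 8, 71497765 to 71511752, reverse strand) codes for the protein of the diaphragms that span fenestrae. It was at 232.7, 259.5 and 262.7 CPM in heart and 11510, 10490 and 8453 CPM in kidney, 40.3-fold apart with no overlap (log2 fold change -5.33, SE 0.17, adjusted p = 0.000118), and had the highest mean in kidney of the genes called over 2-fold under the naming rule. Cav1 (chromosome 6, 17306335 to 17341452, forward strand), the main coat protein of caveolae, was at 4863, 5362 and 4925 CPM in heart and 470.9, 605.2 and 410.7 CPM in kidney. It was thus 10.2-fold higher in heart with no overlap (log2 fold change 3.35, SE 0.18, adjusted p = 0.00024).

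The other coat proteins moved with Cav1 in different measure. Cavin1 was 5.80-fold, Cavin2 4.13-fold and Cav2 3.00-fold higher in heart, with log2 fold changes of 2.54, 2.05 and 1.58 (SE 0.14, 0.19 and 0.13) and adjusted p of 0.000242, 0.000902 and 0.00069. Cavin3 did not pass (log2 fold change -0.31, adjusted p = 0.303). The EHD proteins, membrane-shaping enzymes that gather at the necks of caveolae and on recycling vesicles, split in pairs. Ehd1 was at 992.4, 824.1 and 772.3 CPM in heart and 117.9, 110 and 104.6 CPM in kidney, and Ehd2 at 646.2, 737.6 and 701.2 CPM against 169.3, 173.6 and 196.7 CPM, both higher in every heart library (log2 fold changes 2.96 and 1.95, adjusted p = 0.00021 and 0.000276). Ehd3, which marks glomerular capillaries, was at 30.1, 35.3 and 47.5 CPM in heart and 898.3, 1020 and 680.6 CPM in kidney, and Ehd4 at 207.3, 203.6 and 265.7 CPM against 1667, 1998 and 1566 CPM. Both were higher in every kidney library (log2 fold changes -4.52 and -2.95, SE 0.26 and 0.17, adjusted p = 0.000242 each). The 3 genes higher in kidney were each lowest in kidney library 3, where the tubule sum was highest. Of all 1788 genes called higher in kidney, 384 were lowest in that library, and the part of tubule RNA was not tested. Vegfa and Kdr, the signal that keeps fenestrae open and its receptor, were not called in these cells (adjusted p = 0.126 and 0.818).

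Promoters of Cav1 and Ehd3 are shown as the 2 sides of this split, in the same windows and with the same motif in capitals. They are chr6:17306085-17306384 for Cav1, with 2 motifs, and chr17:73804591-73804890 for Ehd3, with 1, both on the forward strand.
Cav1: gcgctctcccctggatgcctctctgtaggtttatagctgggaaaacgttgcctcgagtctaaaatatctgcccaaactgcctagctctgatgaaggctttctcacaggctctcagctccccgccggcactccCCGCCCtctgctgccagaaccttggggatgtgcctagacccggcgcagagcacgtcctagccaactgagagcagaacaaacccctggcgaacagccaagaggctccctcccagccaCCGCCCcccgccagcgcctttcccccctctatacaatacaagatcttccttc
Ehd3: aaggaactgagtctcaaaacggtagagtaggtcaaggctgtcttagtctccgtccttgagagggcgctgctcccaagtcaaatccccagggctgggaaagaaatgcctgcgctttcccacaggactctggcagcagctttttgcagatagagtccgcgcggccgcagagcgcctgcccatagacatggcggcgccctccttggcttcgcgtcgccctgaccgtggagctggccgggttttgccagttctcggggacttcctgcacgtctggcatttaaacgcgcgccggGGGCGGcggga
Of the 9 genes of this list that were called, 7 had a promoter in the table and 6 of those held the motif, against the 35.7% of all promoters given above. The median number of CG base pairs in sequence was 17 in these 7 promoters and 7 over all promoters. What part this had in the matches was not tested.

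Genes that carry fatty acids across the capillary wall were among the most abundant in heart. Of 23 tested, 10 were called higher in heart and 8 higher in kidney, with a median log2 fold change of -0.16. Summed over the list, levels came to 24820, 17790 and 19180 CPM in heart and 4627, 3915 and 3460 CPM in kidney, 5.15-fold apart with no overlap. Calls higher in heart stayed between 8 and 10 without any 1 library. Calls higher in kidney fell to 5 without heart library 2, 5 without kidney library 1 and 4 without kidney library 3. Cd36, the fatty acid translocase, was at 9647, 7487 and 8565 CPM in heart and 1089, 910.7 and 651.2 CPM in kidney, 9.69-fold apart with no overlap (log2 fold change 3.28, SE 0.22, adjusted p = 0.000297). Fabp4, a carrier of fatty acids within the cell, was at 5983, 4444 and 4411 CPM in heart and 1020, 836.8 and 618.1 CPM in kidney (log2 fold change 2.58, SE 0.23, adjusted p = 0.000817). Per kilobase of exon, Cd36 was at 2390 CPM and Fabp4 at 1100 CPM in heart. Lpl, which frees fatty acids from lipoproteins, and Gpihbp1, which holds it on the capillary, were 9.58-fold and 3.78-fold higher in heart. Their heart levels were highest in library 1, at 2257 CPM for Lpl against 1120 and 1020 CPM and at 1693 CPM for Gpihbp1 against 1058 and 928.9 CPM.

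Steps that release and pass on lipid in the cell followed the heart as well. Aqp7, a channel for glycerol, was at 1058, 869 and 1148 CPM in heart and 32.3, 26.4 and 12.5 CPM in kidney, 43.2-fold apart (log2 fold change 5.43, SE 0.40, adjusted p = 0.000393). Mgll, the monoacylglycerol lipase, was 6.43-fold, Fabp5 6.60-fold and Pparg, the nuclear receptor that drives several of these genes, 4.51-fold higher in heart (adjusted p = 0.000809, 0.00192 and 0.00594). On the kidney side stood fatty acid transport proteins of another family, Slc27a1 (11.3-fold, adjusted p = 0.0101) and Slc27a3 (3.17-fold, adjusted p = 0.00426), the growth factor gene Vegfb (2.92-fold, adjusted p = 0.0108) and Pdk4, which turns cells from glucose to fatty acid use (3.07-fold, adjusted p = 0.00862). Slc27a1, Vegfb and Pdk4 were each highest in kidney library 3, at 92.0, 42.3 and 134.7 CPM, beside its tubule sum of 12730 CPM, and the tubules' part was not tested.

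Control of clotting leaned to the kidney with 1 exception. Of 19 genes tested, 10 were called higher in kidney and 1 higher in heart, with a median log2 fold change of -0.92, and 7 or 8 remained higher in kidney without any 1 library. Vwf, the von Willebrand factor that binds platelets, was the exception, at 397.8, 430.8 and 541.3 CPM in heart and 84.7, 80.2 and 77.6 CPM in kidney (log2 fold change 2.50, SE 0.16, adjusted p = 0.000276). Plat, the tissue plasminogen activator that starts clot breakdown, was at 371.8, 382.8 and 372.5 CPM in heart and 2933, 2498 and 1966 CPM in kidney, 6.56-fold apart (log2 fold change -2.71, SE 0.17, adjusted p = 0.000276). Serpine2, an inhibitor of thrombin and of such activators, was at 40.0, 63.7 and 55.9 CPM in heart and 773.6, 639 and 560.7 CPM in kidney (log2 fold change -3.63, SE 0.23, adjusted p = 0.000276). Every kidney library lay above every heart library for both.

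Thrombospondins and the protein C receptor showed the same side. Thbs2 was 29.9-fold and Thbs1 3.33-fold higher in kidney (log2 fold changes -4.90 and -1.74, adjusted p = 0.000276 and 0.00219). Procr, the receptor that speeds activation of the anticoagulant protein C, was 4.03-fold higher (log2 fold change -2.01, SE 0.20, adjusted p = 0.00132). F3, tissue factor, was at 27.5, 41.2 and 71.8 CPM in kidney and 0, 0.951 and 1.09 CPM in heart (adjusted p = 0.00978), with its highest value in kidney library 3.

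**Figure D3:**
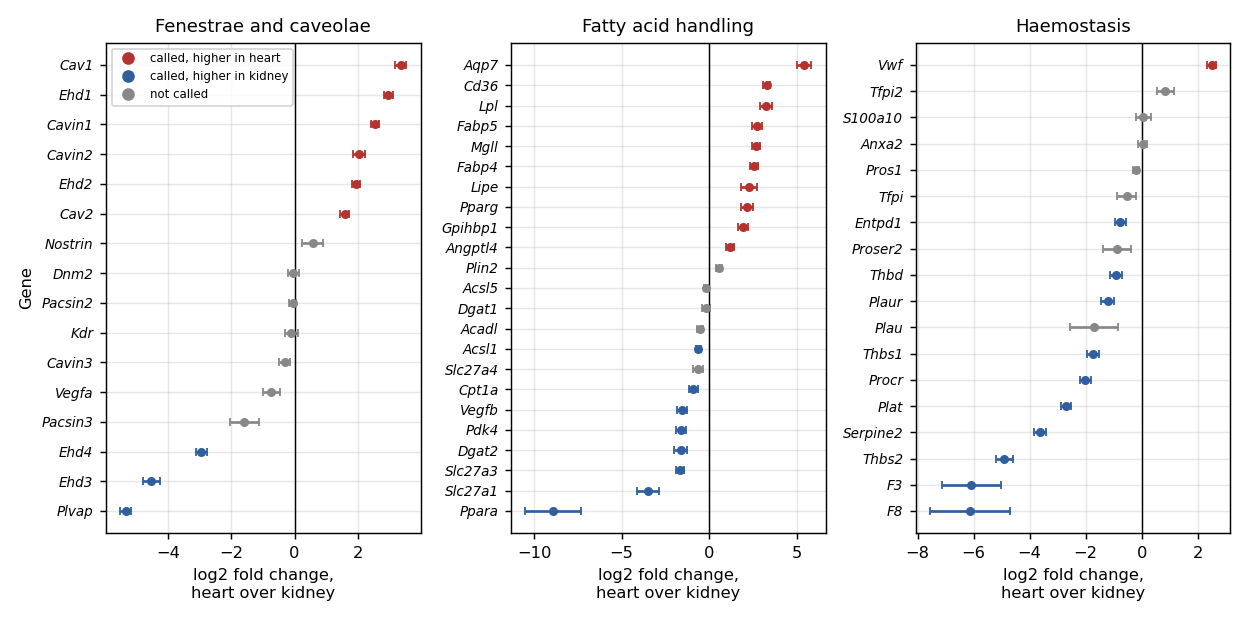
Log2 fold change, heart over kidney, with its standard error for tested genes of 3 lists (1 gene of the clotting list that was not called is not drawn), red where called higher in heart, blue where called higher in kidney and grey where not called. Plvap, Ehd3 and Ehd4 stand alone on the kidney side of the first panel, called genes of fatty acid handling lie on both sides of 0 in the middle panel, and Vwf is the single call to the right in the last.

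Hormones and mediators of vessel tone were divided gene by gene. Of 25 tested, 8 were called higher in heart and 9 higher in kidney, with a median log2 fold change of 0.00. Counts without 1 library were 7 or 8 in heart and 6 to 8 in kidney. Ednrb, the endothelin receptor that clears endothelin and releases nitric oxide, was at 340.6, 331.5 and 184.8 CPM in heart and 2037, 1018 and 915.6 CPM in kidney (log2 fold change -2.21, SE 0.38, adjusted p = 0.0101). Ace, the angiotensin converting enzyme, was at 86.4, 100.9 and 116.3 CPM in heart and 9.69, 21.9 and 17.6 CPM in kidney (log2 fold change 2.63, SE 0.32, adjusted p = 0.00271). Organs did not overlap for either gene.

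Other enzymes that cut angiotensin and natriuretic peptides went to the kidney side. Enpep, aminopeptidase A, was at 213.3, 213 and 182.7 CPM in kidney and 3.65, 21.8 and 26.7 CPM in heart (adjusted p = 0.0127). Mme, neprilysin, was at 41.0, 37.0 and 68.6 CPM in kidney and 0 counts in heart, which puts its level at least 1980-fold above a floor of 3 counts summed across heart libraries (adjusted p = 0.000645). Both enzymes are also known from proximal tubules and podocytes, and tubule markers were at 6835 to 12730 CPM in the same libraries. Receptors of natriuretic peptides split, with Npr2 2.49-fold higher in heart and Npr3, the clearance receptor, 4.14-fold higher in kidney (log2 fold changes 1.32 and -2.05, adjusted p = 0.00262 and 0.0048). The call of Npr3 was lost in a fit of all 18 libraries (adjusted p = 0.0759).

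The adrenomedullin system split within its own receptor. Adm, the dilating peptide, was at 145.4, 179.5 and 169 CPM in heart and 28.5, 44.1 and 47.8 CPM in kidney (4.10-fold, adjusted p = 0.00189). Ramp2, the partner that makes the receptor answer to it, was 2.12-fold higher in heart, and Calcrl, the receptor itself, 2.04-fold higher in kidney (adjusted p = 0.00931 and 0.0118). Gucy1a1 and Gucy1b1, the subunits of the nitric oxide receptor, were 8.02-fold and 12.4-fold higher in heart (adjusted p = 0.00529 and 0.00567), and their highest heart values were in library 3, where pericyte and smooth muscle markers also had their highest sum, 2243 CPM. Those cells' part was not tested.

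Genes for urea and salt in the medulla were on the kidney side. Of 14 genes of water, urea and osmolyte handling, 7 were called higher in kidney and 1, Aqp7, higher in heart, with a median log2 fold change of -0.86. The 7 became 3 without heart library 3, kidney library 2 or kidney library 3, 4 without heart library 1 or kidney library 1, and 3 with libraries scaled to the general endothelial genes. Slc14a1, the urea transporter of descending vasa recta, was at 158.7, 193.5 and 267.3 CPM in kidney and 0.381, 0.0453 and 0.372 CPM in heart, 776-fold apart with no overlap (log2 fold change -9.63, SE 0.58, adjusted p = 0.000246). Slc5a3, which takes up the osmolyte inositol, was at 274.9, 109.3 and 181.8 CPM in kidney and 13.7, 20.1 and 25.8 CPM in heart (9.49-fold, adjusted p = 0.00285). Kidney library 3, with the highest tubule sum (12730 CPM), was the highest kidney library for 5 of the 7 called genes, Slc14a1 among them, against 54.3% of all genes called higher in kidney, and the part of tubule RNA was not tested. Aqp1, the water channel of both organs' vessels, did not pass, at 4439, 4962 and 3615 CPM in heart and 1545, 2060 and 3458 CPM in kidney (adjusted p = 0.0928).

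Of 20 genes of vascular growth factors, 4 were called higher in heart and 4 higher in kidney, with a median log2 fold change of 0.01. The 4 in heart were 2 without heart library 3 or kidney library 2. Esm1, a secreted proteoglycan that answers to vascular endothelial growth factor, was at 13.8, 15.2 and 28.5 CPM in heart and 1021, 957.6 and 743.6 CPM in kidney, 47.4-fold apart (log2 fold change -5.57, SE 0.36, adjusted p = 0.000276). Flt4 was at 96.5, 135.5 and 117.5 CPM in heart and 423.3, 344.4 and 248.4 CPM in kidney, 2.91-fold higher there (adjusted p = 0.00585). Pgf, placental growth factor, and Unc5b, a guidance receptor of arterial tips, were 5.16-fold and 3.02-fold higher in heart (adjusted p = 0.00125 and 0.00209). Flt1, Kdr, Tie1 and Angpt2 were not called, with log2 fold changes between -0.13 and 0.04.

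Of the Notch pathway, 3 target genes and 2 ligands were higher in heart, while the receptors were not called. Of 15 genes tested, 5 were called higher in heart and 0 in kidney, with a median log2 fold change of 0.12, and the 5 stayed at 5 in each fit without 1 library. Hey1, a repressor switched on by Notch, was at 203.4, 166.4 and 200 CPM in heart and 11.1, 31.5 and 24.9 CPM in kidney, 8.45-fold apart (log2 fold change 3.08, SE 0.38, adjusted p = 0.00291). Heyl and Nrarp, further targets, were 3.88-fold and 3.23-fold higher, and the ligands Jag2 and Dll1 1.97-fold and 1.81-fold (adjusted p = 0.0086, 0.00653, 0.0101 and 0.00966), Dll1 passing in these 6 libraries but not in a fit of all 18 (adjusted p = 0.0747). Notch1, Notch4 and the ligand Dll4 were not called (adjusted p = 0.866, 0.205 and 0.242). Heyl is also known from mural cells, whose summed markers were 1648 to 2243 CPM in heart and 306.8 to 476.4 CPM in kidney.

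Within BMP and TGF-beta signalling, 4 of 28 genes were called higher in heart and 8 higher in kidney, or 5 without kidney library 2, with a median log2 fold change of -0.05. Bmp6, a ligand that endothelium makes to set iron uptake, was at 415.3, 362.7 and 370.3 CPM in heart and 86.8, 127.7 and 77.9 CPM in kidney (3.93-fold, adjusted p = 0.00169). The target genes Id1 and Id3 were 3.10-fold and 2.34-fold higher in heart, and the ligand Tgfb3 8.05-fold (adjusted p = 0.00621, 0.00495 and 0.00111). Tgfbr2, the TGF-beta type II receptor, was at 193.3, 297 and 210.5 CPM in heart and 868.7, 842.8 and 670.2 CPM in kidney, 3.40-fold higher there with no overlap (adjusted p = 0.00238). Sost, a secreted inhibitor known from bone and from kidney arterioles, was at 11.8, 54.8 and 26.4 CPM in kidney and 0.762, 1.04 and 2.40 CPM in heart (22.1-fold, adjusted p = 0.00828). Receptors Acvrl1, Bmpr2 and Eng were not called, with log2 fold changes of 0.16, 0.04 and -0.05.

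Wnt genes called higher in kidney included Sfrp1, Sfrp2, Notum and Nkd1, inhibitors of the pathway, and Dkk2, a secreted modulator of it. The share of inhibitors among all genes of the list was not counted, so no excess of them is stated. Of 23 genes of the pathway tested, 8 were called higher in kidney and 0 in heart (median log2 fold change -0.76), and 5 without kidney library 2 or 3. Notum was not called in any of the 6 fits without 1 library (adjusted p 0.0531 to 0.0887), nor Nkd1 without heart library 2 or 3 or kidney library 2 or 3 (adjusted p up to 0.0922). Sfrp1, which binds Wnt proteins outside the cell, was at 165.7, 205.2 and 342.4 CPM in kidney and 2.26, 1.11 and 2.28 CPM in heart, 126-fold apart (log2 fold change -6.99, SE 0.45, adjusted p = 0.000276). Dkk2, another secreted modulator, was at 212.2, 161.2 and 125.5 CPM in kidney and 1.82, 4.82 and 3.34 CPM in heart, 50-fold apart (log2 fold change -5.64, SE 0.42, adjusted p = 0.000427). Sfrp2 was at 7.02, 9.31 and 7.19 CPM in kidney and 0 counts in heart, at least 317-fold higher (adjusted p = 0.00187). Lef1, the factor through which Wnt acts on genes, was at 34.0, 47.8 and 46.0 CPM in kidney and 1.82, 0.385 and 0.173 CPM in heart (53.7-fold, adjusted p = 0.0053). Axin2, the usual readout of Wnt activity, was not called (log2 fold change -0.76, adjusted p = 0.532).

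Binding proteins of the insulin-like growth factors were distributed between the organs. Of 11 genes tested, 3 were called higher in heart and 5 higher in kidney, or 2 without kidney library 2 and 3 without heart library 2, kidney library 1 or kidney library 3 (median log2 fold change -0.81). Igfbp5 was at 211.4, 183.1 and 256 CPM in heart and 2708, 2440 and 1703 CPM in kidney, 10.5-fold apart (log2 fold change -3.40, SE 0.23, adjusted p = 0.000297). Igfbp3 was at 490.8, 467 and 449.8 CPM in heart and 4187, 1950 and 1968 CPM in kidney (5.76-fold, adjusted p = 0.00318). Igf2, a fetal growth factor, was at 35.5, 29.8 and 31.8 CPM in heart and 1.37, 1.75 and 3.40 CPM in kidney (14.9-fold, adjusted p = 0.00156), and Igfbp7 was 2.77-fold higher in heart (adjusted p = 0.00641).

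Cell junctions used different claudins. Of 22 genes tested, 6 were called higher in heart and 5 higher in kidney, with a median log2 fold change of 0.15. The 5 in kidney were 2 without heart library 2 or any 1 of the kidney libraries, and the 6 in heart 4 to 6. Cldn5, the sealing claudin of endothelium, was at 517.5, 401.4 and 357.2 CPM in heart and 108.8, 160.2 and 191.5 CPM in kidney (2.77-fold, adjusted p = 0.0087). Cldn15, a claudin that forms pores, was at 103.8, 61.9 and 47.2 CPM in heart and 397.1, 325 and 295.8 CPM in kidney (4.78-fold, adjusted p = 0.00402). Afdn and Jam2, which join junctions to the cell skeleton and bind neighbouring cells, were 4.86-fold and 2.76-fold higher in heart (adjusted p = 0.000902 and 0.00252). Gja4, a connexin of arterial endothelium, was 2.45-fold higher in kidney (adjusted p = 0.00228), and Gja5, its partner, was not called (log2 fold change 0.14).

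Among 20 genes of arterial endothelium, 6 were called higher in heart and 3 higher in kidney, with 5 or 6 and 2 or 3 left without any 1 library. The most distant arterial gene was Cxcl12, a chemokine of arteries and capillaries, at 1246, 1607 and 1877 CPM in heart and 119.4, 89.6 and 69.6 CPM in kidney, 17.0-fold apart (log2 fold change 4.09, SE 0.27, adjusted p = 0.000276). Stmn2 was 4.35-fold higher in heart and Fbln5, an elastic fibre protein, 2.24-fold higher in kidney (adjusted p = 0.0048 and 0.00826). Sox17, Efnb2 and Bmx, widely used marks of arteries, and Nr2f2 and Ephb4, marks of veins, were not called (adjusted p between 0.0958 and 0.968).

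The basement membrane differed in its collagen chains and in genes for laminin and its receptor. Of 29 genes tested, 9 were called higher in each organ, with a median log2 fold change of 0.18. The 9 in heart were 3 without heart library 2 and 4 without heart library 1 or 3 or kidney library 2 or 3, and those in kidney stayed between 6 and 8. Col4a3 and Col4a4, chains of the collagen network of the glomerular filter, were at 43.8, 59.5 and 74.7 CPM and 19.4, 19.1 and 33.9 CPM in kidney. In heart they were at 2.12, 3.53 and 3.62 CPM and 1.82, 0.883 and 3.52 CPM (19.2-fold and 11.6-fold, adjusted p = 0.000465 and 0.0077), and both had their highest kidney value in library 3. Col18a1, the source of endostatin, was 4.69-fold higher in kidney (adjusted p = 0.000542), with library 3 the highest kidney library. Itga6, a laminin receptor, was at 469.1, 620.2 and 503.4 CPM in heart and 172.3, 196.4 and 145.2 CPM in kidney (3.10-fold, adjusted p = 0.00169), and the chain Lamb1 was 2.11-fold higher in heart (adjusted p = 0.00361, and 0.177 in a fit of all 18 libraries).

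Antigen presentation was uneven between its 2 classes. Of 8 genes of MHC class II, which presents peptides to helper T cells, 7 were called higher in kidney and 0 in heart (median log2 fold change -1.66). The 7 were 4 without heart library 1 or 3 or kidney library 2 or 3, and 1 in a fit of all 18 libraries. H2-Ab1 was at 53.5, 106.6 and 53.5 CPM in heart and 258.9, 285.1 and 233.6 CPM in kidney, 3.64-fold apart with no overlap (log2 fold change -1.86, SE 0.30, adjusted p = 0.00736). H2-Aa was 2.75-fold, H2-DMa 4.63-fold and H2-DMb1, which loads peptides on class II, 4.91-fold higher in kidney (adjusted p = 0.00368, 0.00495 and 0.00049). Heart library 2 had the highest class II sum in heart, 539.9 CPM against 269 and 292.7 CPM, and also the highest sum of leukocyte markers there, 98.9 CPM against 47.0 and 58.7 CPM, whose part was not tested. Of 16 tested genes of MHC class I, 0 were called by edgeR, also without any 1 library, 1 had an unadjusted p under 0.05 and 1 was called by DESeq2, and log2 fold changes ran from -0.47 to 0.48.

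Interferon genes were mostly not called, with 2 of 23 higher in heart, or 1 without kidney library 2, and 4 higher in kidney. Rsad2, an antiviral enzyme, was at 225.6, 299.2 and 248.4 CPM in heart and 952.5, 1065 and 827.3 CPM in kidney, and Ifi44 at 76.3, 62.7 and 48.5 CPM against 410.8, 316.8 and 254.4 CPM (3.68-fold and 5.24-fold, adjusted p = 0.00081 and 0.00152). Oas2, a sensor of double-stranded RNA, was 7.10-fold higher in heart (log2 fold change 2.82, SE 0.37, adjusted p = 0.00365). Irf7 and Isg15, common to interferon responses, did not pass (adjusted p = 0.0866 and 0.766).

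Chemokines and adhesion molecules gave 5 calls higher in heart and 4 higher in kidney of 25, the 4 being 2 without kidney library 1 or 3. Cxcl9, which draws T cells, was at 56.2, 82.2 and 46.6 CPM in heart and 4.61, 5.43 and 2.62 CPM in kidney (14.6-fold, adjusted p = 0.0011). Ackr3, the scavenger receptor of Cxcl12, was 8.59-fold and Cxcl1, which draws neutrophils, 5.52-fold higher in heart (adjusted p = 0.00113 and 0.0018). In kidney stood Il33, an alarm signal held in the nucleus, at 266.3, 170.5 and 140.1 CPM against 28.3, 26.0 and 20.1 CPM, and Cx3cl1, a membrane chemokine, at 786.4, 542.1 and 517.6 CPM against 217, 196.4 and 192.5 CPM. They were 7.75-fold and 3.05-fold higher there (adjusted p = 0.00113 and 0.0025). Icam2, which binds leukocytes in resting vessels, and Vcam1, which does so in inflamed ones, did not pass (adjusted p = 0.0562 and 0.505).

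Energy metabolism leaned to the kidney in small steps. Of 26 genes of oxidative phosphorylation, 10 were called higher in kidney and 0 in heart, with a median log2 fold change of -0.58. The 10 were 5 without heart library 2, 6 without heart library 3 or kidney library 2 or 3, 4 with libraries scaled to the general endothelial genes and 17 by DESeq2. Sdha, of succinate dehydrogenase, was at 361.8, 370.6 and 390.5 CPM in heart and 658.8, 623.6 and 810.8 CPM in kidney, 1.86-fold apart (adjusted p = 0.00667), and Atp5a1, of the ATP synthase, 1.94-fold (adjusted p = 0.00691). Ppargc1a, a coactivator that drives mitochondrial growth, was at 37.0, 40.3 and 66.7 CPM in kidney and 0.109, 0.0226 and 0.991 CPM in heart (adjusted p = 0.00596). All 10 called genes were highest in kidney library 3, the library with the highest tubule sum, against 54.3% of all genes called higher in kidney. Renal tubules are known for their many mitochondria. The part of tubule RNA was not tested.

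Glucose use leaned the same way. Of 28 genes of glycolysis and hypoxia, 11 were called higher in kidney and 1, Ankrd37, higher in heart, with a median log2 fold change of -0.70 and 8 to 11 higher in kidney without any 1 library. Slc2a1, the main glucose carrier of endothelium, was at 42.0, 34.6 and 40.8 CPM in heart and 117, 104 and 115.5 CPM in kidney, 2.87-fold apart with no overlap (log2 fold change -1.52, SE 0.14, adjusted p = 0.00101). Pfkfb3, which speeds glycolysis, was 1.92-fold and Hif1a, the oxygen-regulated factor, 1.73-fold higher in kidney (adjusted p = 0.0103 and 0.0105). Ldhb, a lactate dehydrogenase chain also abundant in distal tubules, was at 359.1, 374.6 and 603.8 CPM in kidney and 46.5, 58.0 and 51.6 CPM in heart (8.57-fold, adjusted p = 0.000516). Kidney library 3 was the highest for 7 of the 11 genes, Ldhb among them, and the lowest kidney library for Pfkfb3. That is 63.6%, near the 54.3% of all genes called higher in kidney.

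Genes that react to handling of tissue were checked too, because digestion and sorting can switch them on. Of 23 immediate early genes, 6 were called higher in heart and 0 in kidney (median log2 fold change 0.54). The 6 became 0 without heart library 2 or kidney library 2, 1 without heart library 1 or 3 or kidney library 1, 9 without kidney library 3 and 0 with libraries scaled to the general endothelial genes. Fos was at 6503, 5567 and 4620 CPM in heart and 2675, 3284 and 4931 CPM in kidney, and the organs overlapped (adjusted p = 0.145). Heat shock genes gave 1 call of 12, and 0 without heart library 2 or 3 or kidney library 1 or 3. Of 26 genes of the cell cycle, 5 were called higher in heart, 0 without heart library 2, 2 without kidney library 2 and 1 without any other library, while the list's median log2 fold change, 1.5, stayed between 1.17 and 1.72. DESeq2 called 11. The metallothioneins Mt1 and Mt2, which bind zinc and answer to glucocorticoids, were 8.78-fold and 16.0-fold higher in kidney (adjusted p = 0.00113 and 0.00482) and highest in kidney library 3, at 124.4 and 33.9 CPM, and they were the largest calls of 13 genes of the glucocorticoid response, 2 of which were higher in heart and 3 in kidney. The 2 in heart were 0 without heart library 1 or 2 or kidney library 1 or 2, and 1 without heart library 3 or kidney library 3.

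**Figure D4:**
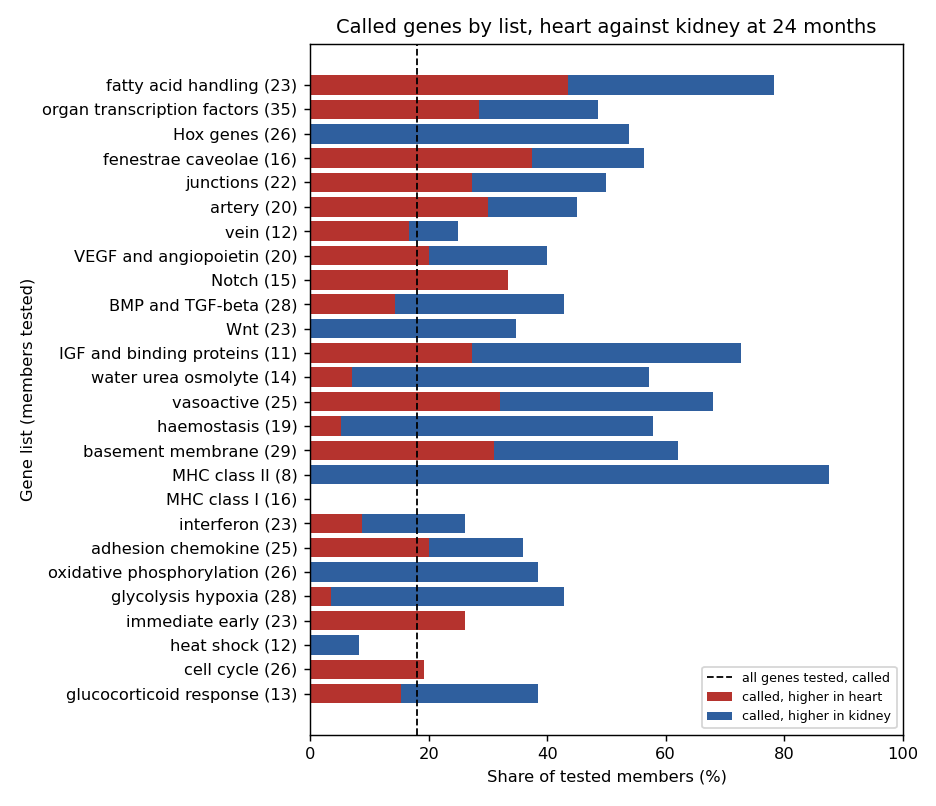
Share of the tested genes of each of 26 lists that was called (percent), red for higher in heart and blue for higher in kidney, with the number of genes tested in brackets and a dashed line at the 18% called among all genes tested. MHC class I has 0 calls of 16, and the Hox, Wnt, MHC class II and oxidative phosphorylation lists have calls in kidney and 0 in heart.

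The widest differences over all genes, by the naming rule, were led by genes with no count in 1 organ. In heart these were Klra9, at 43.7, 71.5 and 45.1 CPM and 0 counts in kidney, at least 2920-fold higher (adjusted p = 0.000406), Ahsg, a plasma protein, at least 790-fold (adjusted p = 0.00661), and Adam23, an adhesion protein, at least 689-fold (adjusted p = 0.00116). Klra9 belongs to a family of near-identical receptor genes, so reads may be split among its copies. Next came Lum, H19, Cd276 and Gata4, each with 1 or 2 counts in kidney. H19 is an imprinted RNA of fetal growth, at 20.6, 10.9 and 17.6 CPM in heart. Several of the rest are matrix or fibroblast genes: Dcn was at 103.8, 127.7 and 161.8 CPM in heart, 82.9-fold above kidney, Prg4, a lubricating proteoglycan, at 107.7, 148 and 119.5 CPM, 73.2-fold, and Lum at 21.0, 37.9 and 50.8 CPM. Dcn and Lum are in the fibroblast list, whose sum was 240.1 to 364.2 CPM in heart and 155.4 to 190.0 CPM in kidney. Their means in kidney were 1.58 and 0.00419 CPM, so the kidney sum rests on other genes of the list. No marker of it was at 0 in either organ. Of its 10 genes, 5 were called higher in heart, or 2 to 4 without any 1 library, and 1 higher in kidney. Its median log2 fold change was 3.11, with 9 genes above 0 and 1 below. The part of fibroblasts was not tested. Itih4, Colec11 and Nav3 were 145-fold, 116-fold and 98.8-fold higher in heart (adjusted p = 0.0117, 0.0127 and 0.00741).

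In kidney, 14 of the 15 genes named by this rule had 0 counts in heart and the other, Itgb6, had 1. After Mme came Vstm2a, at least 933-fold, Hao2, an oxidase of hydroxy acids, at least 923-fold, and Slc13a1, a sulfate carrier, at least 699-fold higher. Most have a known place in tubules: Slc17a1 and Slc6a19 carry phosphate or urate and amino acids in the proximal tubule, and Cldn2 makes its water-permeable junctions. Slc17a1 was at 15.5, 3.45 and 23.5 CPM in kidney libraries 1, 2 and 3, Hao2 at 23.2, 8.91 and 36.4 CPM and Slc13a1 at 22.3, 6.09 and 23.5 CPM. These 3 were lowest in library 2, like Slc34a1. Of the 15 genes, 13 were lowest there, against 41.7% of all genes called higher in kidney. Library 3 was the highest for 12 of the 15, against 54.3% of all genes called higher in kidney. Alcam, an adhesion molecule, differed, at 11.1, 14.4 and 16.2 CPM (at least 562-fold, adjusted p = 0.000999).

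The most abundant called genes over 2-fold in heart were Cd36, Cav1, Fabp4, Ltbp4 and Sparcl1, and in kidney Plvap, Timp3, Igfbp3, Plat and Plpp3. Sparcl1, a matrix-cell protein, was at 3364, 3574 and 3300 CPM in heart and 431.4, 447.9 and 412.6 CPM in kidney, with tight libraries and 7.92-fold apart (log2 fold change 2.99, SE 0.11, adjusted p = 0.000132). Ltbp4, which stores TGF-beta in the matrix, was 2.63-fold higher in heart (adjusted p = 0.00113). Timp3, an inhibitor of matrix proteases, was at 2022, 2066 and 1932 CPM in heart and 5498, 5125 and 4157 CPM in kidney (2.46-fold, adjusted p = 0.00158). Plpp3, a lipid phosphatase, was 2.07-fold higher in kidney (adjusted p = 0.0218), a call that held in 2 of the 6 fits without 1 library.

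The organ difference at 24 months was then set beside that at 3 months, which was measured in other libraries. For heart library 3 at 3 months, sequenced in 2 runs, the age field of 1 run says 4 months where its other labels say 3, and it was kept at 3 months. Of the 2890 genes called at 24 months, 2807 (97.1%) had the same direction at 3 months, as did 9219 of 13167 genes not called (70%). A test of the difference between ages called 5 of 17592 genes (0.0284%), and 1288 had an unadjusted p under 0.05. The number was 0 without heart library 1 and 3 without heart library 2 at 3 months, 1 or 2 without any 1 kidney library, and 14, 18 and 25 without heart libraries 1, 2 and 3 at 24 months, and DESeq2 called 220. Lepr, the leptin receptor, led, at 0.0849, 0.0260 and 0.0788 CPM in heart at 3 months and 2.63, 4.56 and 3.81 CPM at 24 months. In kidney it was at 77.6, 60.8 and 98.5 CPM at 3 months and 119.6, 118.2 and 71.1 CPM at 24 months, so it was higher in kidney at both ages, and the gap was smaller at 24 months (difference of log2 fold changes 5.35, SE 0.52, adjusted p = 0.00922). Lepr was called in 11 of 12 fits that left out 1 library, the exception being that without heart library 1 at 3 months.

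The other 4 had the same pattern of almost no counts in young hearts. Cpeb1, a regulator of translation, was at 0 CPM in each heart library at 3 months and 1.11, 3.09 and 2.67 CPM at 24 months. Bmper, which modulates BMP signals, was at 0, 0 and 0.0113 CPM and then 2.58, 2.93 and 1.33 CPM in heart (adjusted p = 0.0406, also that of Cpeb1 and Col4a4). For each of the 4, every kidney library lay above every heart library of the same age. The calls of Cpeb1, Bmper, Col4a4 and Tmem30b each held in 3 of the 12 fits. Heart sums of tubule markers, scaled to library totals, were 9.90, 12.4 and 96.0 CPM at 3 months and 11.1, 13.1 and 254.1 CPM at 24 months. They were highest in heart library 3 at each age. The 5 genes had counts in every heart library at 24 months, where Col4a4 was highest in library 3 and the other 4 in library 2. At 3 months, Col4a4 (3 counts) and Bmper (1 count) were found in heart only in library 3. Lepr and Tmem30b also had counts in library 1, and Cpeb1 had 0. The part of tubule RNA was not tested.

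**Figure D5:**
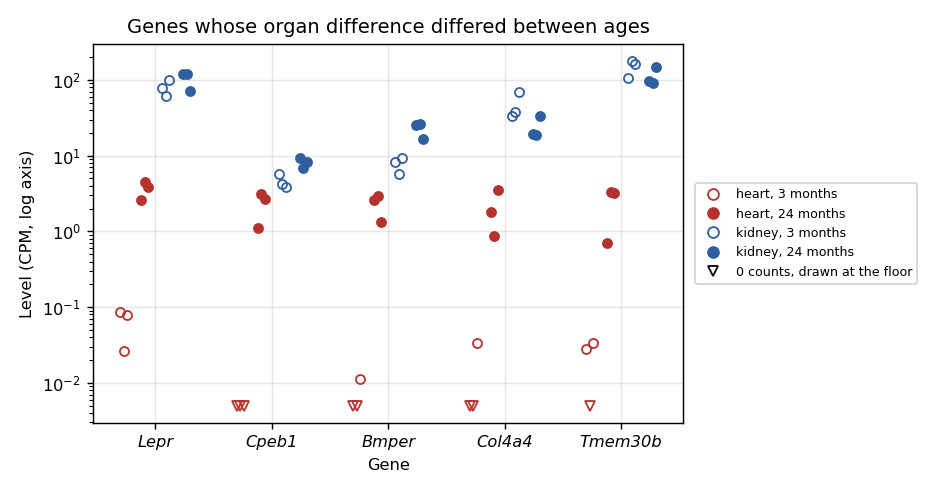
Level of the 5 genes whose organ difference differed between the ages, in each of 12 libraries (CPM, log axis), heart in red and kidney in blue, open for 3 months and filled for 24 months, with triangles at the foot for 0 counts. Heart libraries at 3 months lie at or below 0.0849 CPM and those at 24 months between 0.705 and 4.56 CPM, while kidney libraries are higher at both ages.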

How the data were processed

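Bulk RNA-seq libraries of sorted endothelial cells were made with SMART-Seq v4 cDNA and an Ovation library kit, per the labels' protocols. The authors deposited raw counts per Ensembl gene, 46078 genes in a table for each organ, and the submitters' processing notes name TopHat2, HTSeq and GRCm38/mm10. Versions, annotation release and strand setting are not given in the sources used here. Summary lines that name no gene (28.4 to 30.4% of counts in kidney at 24 months, none in the heart table) were left out. The 2 runs of kidney library 1, whose counts agree within sampling noise (chi-square per degree of freedom 1.07), were summed and counted as 1 library. Heart libraries 1 to 3 are those numbered 1, 3 and 4 in the labels. For kidney at 24 months, titles and descriptions disagree on which library was run 2 times, so libraries were taken from the column names, which match the descriptions.

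Genes with enough counts (filterByExpr, minimum count 10) were scaled by TMM and tested with edgeR 4.0.16 (quasi-likelihood F test, limma 3.58.1, R 4.3.3) over the 6 libraries, p-values adjusted by Benjamini-Hochberg and called at 0.05. The difference between ages was an interaction term over 12 libraries. Symbols and positions came from GENCODE M21 for 45229 genes, and promoters from RefSeq. Tables of the organs were counted separately, which cannot be told apart from organ. Alternatives were DESeq2 1.42.0, other scalings, no filter, 1 run of kidney library 1, all 18 libraries, a replicate block and leaving out each library.

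The genes named over all genes were in each direction, the 15 with the largest fold change among called genes whose organs do not overlap and whose higher mean is at least 10 CPM, and the 5 most abundant called genes over 2-fold, leaving out predicted genes, immunoglobulin segments, ribosomal protein genes and markers of tubules, podocytes and cardiomyocytes. The 5 genes of the age test were named by their adjusted p, and others belong to the lists. Members and lists were chosen with earlier results of these data known. Brain libraries enter only the fit of all 18 libraries. Some members of the lists are counted but not reported here by name.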

Additional observations from a re-analysis of the deposited data

Results flagged for a closer look

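The organ difference, heart over kidney on the log2 scale, differed between 24 and 3 months for 5 genes by the interaction term of edgeR's quasi-likelihood test over 12 libraries. The difference of differences was 5.35 for Lepr (adjusted p = 0.00922), 8.93 for Cpeb1, 6.54 for Bmper, 7.67 for Col4a4 (adjusted p = 0.0406 each) and 6.91 for Tmem30b (adjusted p = 0.0468). Heart libraries at 3 months had 0 or few counts of these genes, so the sizes depend on the prior count of the fit and are no bounds. Tmem30b was at 0.0283, 0 and 0.0338 CPM in heart at 3 months and 0.705, 3.34 and 3.19 CPM at 24 months. Col4a4 was at 0, 0 and 0.0338 CPM and then at 1.82, 0.880 and 3.51 CPM. With the replicate number as a block, 0 of the 5 passed.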

How the results depend on the processing

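All genes called at 24 months kept their direction under every alternative in which they were tested. Their number, 2890, was 1841 with the replicate block and 1731 to 2270 without any 1 library. Whether the numbers pair the libraries is not stated in the labels. Deviations of same-numbered heart and kidney libraries correlated at 0.013, 0.062 and 0.042, and those of other pairs at -0.053 to 0.011. Each library thus correlated best with its own number. Correlations this small, over 3 libraries an organ, cannot decide whether the libraries are paired. For the difference between ages, 5 calls became 220 with DESeq2, 1 with all 18 libraries in the fit, 0 with the replicate block (lowest adjusted p 0.134) and 0 to 25 without any 1 library, and scaling to the general endothelial genes moved the median over all genes from 0.02 to 0.29. Of 194 genes named, the call was lost for 14 with all 18 libraries, 8 with the replicate block, 2 with no filter and 2 with endothelial scaling, and DESeq2 added 6. With all 18 libraries those lost include Bmper, Smoc1, Lyve1, Fgl2, H2-Aa, H2-DMa and H2-DMb1, and with the replicate block Notum, Nkd1, Lyve1 and Cox6a2. Among counts of calls by list and direction, 76 in all, 14 moved over 1.5 times with DESeq2, 16 with the replicate block and 11 to 21 without any 1 library. The cause was not tested. With 3 libraries an organ, an exact permutation test of a single value cannot go below 0.1, so no p is given for summed levels.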
